A study of Mus musculus with 6 samples.

Results

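The BCL2 family decides whether a stressed cell keeps its mitochondria intact or opens them and dies, and 7 of its mouse genes are described here in leukemic bone marrow with and without a knockout of Papola. They were chosen by gene symbol, as Bcl2a1a, Bcl2a1b, Bcl2a1d, Mcl1, Bax, Bad and Bok, and they are 7 of the 9295 genes in the deposited table. The sum of the 3 Bcl2a1 copies was analysed as well. RNA came from 3 samples labelled KO, with the genotype PAPOLA KO, and from 3 samples labelled Con, with the genotype PAPOLA flox/flox, in which the gene carries recombination sites but is not knocked out. All 6 are bone marrow, with leukemia given as the cell type, and the study describes the animals as mice with acute myeloid leukemia. The labels do not give the Cre driver, how the leukemia was started, the strain, the age, or whether each sample is a different animal. Without separate animals, the p-values would cover only the spread of these samples, which may be technical.

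Papola encodes poly(A) polymerase alpha, which adds the poly(A) tail to newly made messenger RNA. BCL2 family proteins fall into survival proteins, such as MCL1 and the BCL2A1 proteins, pore-forming effectors, such as BAX and BOK, which permeabilise the outer mitochondrial membrane, and BH3-only proteins, such as BAD, which bind and neutralise survival proteins. In blood cells MCL1 is a short-lived protein on which neutrophils, progenitors and many acute myeloid leukemias depend, and Bcl2a1 is known as a target gene of NF-kB in activated myeloid cells.

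The libraries labelled KO held 8875022 to 9768143 counts and the libraries labelled Con 11253932 to 11436216. Papola itself had 2928, 2929 and 2440 counts in KO and 3751, 3779 and 3642 counts in Con, or 339 ± 23.8 counts-per-million (CPM) in KO and 291 ± 6.42 CPM in Con (SD, n = 3 each). Reads over the deleted exons were not analysed on their own here, so this level does not check the labels, and every direction below follows the labels. Con replicates 2 and 3 stood closer to each other than any other pair of a group (chi-square per degree of freedom 1.68, against 17.7 to 23.7). They differed by more than counting noise and were kept as separate samples, and summing them as 1 sample ended no member's call. The groups differed at most genes. Among the 8358 genes in the test, 82.0% had an adjusted p under 0.05, 39.6% as higher and 42.4% as lower in KO. With library size as the only scaling in place of the TMM factors used here, 2488 genes were higher and 4476 lower in KO, against 3310 and 3544 with TMM, and the median log2 fold change of all genes was -0.41 in place of -0.06.

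The cell markers differed as well, and their part in the results below was not tested. All 15 late neutrophil markers were higher in KO, with 15.7% to 18.2% of counts in KO and 0.918% to 0.990% in Con. All 11 measured erythroid markers were higher in KO, with 1.59% to 2.27% of counts in KO and 0.0456% to 0.0733% in Con. Of 10 macrophage markers 4 were higher and 6 lower in KO, and the list held 0.0729% to 0.140% of counts in KO and 2.18% to 3.14% in Con. The share in Con lay mostly in Gpnmb (8.26 CPM in KO, 14058 CPM in Con) and Mmp12 (1.49 CPM in KO, 8292 CPM in Con). The 4 higher ones were C1qa, C1qb, C1qc and Mertk, by 7.38, 5.98, 5.65 and 0.97 (log2), so the summed share does not speak for every macrophage marker. All 7 basophil and mast cell markers were lower in KO (0.0409% to 0.0614% of counts in KO, 0.225% to 0.310% in Con). T and NK cell markers were split, with 7 of 9 higher and 2 lower in KO, while their summed share was lower in KO (0.00756% to 0.0107% of counts in KO, 0.0406% to 0.0600% in Con). Gzmb, a granzyme gene, was among the lower ones, at 7.10 ± 0.768 CPM in KO and 303 ± 96.7 CPM in Con. Of 5 B cell markers 3 were higher and 0 lower (0.00782% to 0.0212% of counts in KO, 0.00492% to 0.00891% in Con), and of 7 markers of marrow stroma and endothelium 6 were higher and 1 lower, with shares that overlapped (0.0292% to 0.0478% in KO, 0.0423% to 0.0451% in Con). The NK cell receptor gene Ncr1 and the endothelial gene Sele were at 0 in all Con libraries, and no marker was at 0 in all KO libraries. Of the 5 measured blood and progenitor markers, the pan-leukocyte gene Ptprc, the myeloid factor gene Spi1, Itgam and Mpo were higher and Kit was lower in KO, and all 5 were detected in both groups. In bulk samples, fewer cells of a type and less RNA per cell cannot be told apart.

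The 3 Bcl2a1 copies, all on chromosome 9, are near-identical, which matters for every value of a single copy. Their coding parts have 519 bases each, and Bcl2a1b differs from Bcl2a1a at 11 of them (97.9% identity), Bcl2a1d from Bcl2a1a at 7 (98.7%) and Bcl2a1b from Bcl2a1d at 6 (98.8%). The first 60 coding bases are shown because, within the coding parts, they are the stretch of that length with the most differing positions. The untranslated parts were not searched in this way. Capitals mark the 6 positions that differ among the copies. They lie at chr9:88957051-88957110 on the plus strand for Bcl2a1a, chr9:89199360-89199419 on the plus strand for Bcl2a1b and chr9:88731660-88731719 on the minus strand for Bcl2a1d (GENCODE M21, GRCm38).
Bcl2a1a: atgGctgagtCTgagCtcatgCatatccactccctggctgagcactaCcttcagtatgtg
Bcl2a1b: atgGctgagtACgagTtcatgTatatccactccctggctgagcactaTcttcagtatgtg
Bcl2a1d: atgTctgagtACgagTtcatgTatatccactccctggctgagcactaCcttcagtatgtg

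Of the windows of 100 bases along each transcript, 43.5% of those of Bcl2a1a, 31.1% of those of Bcl2a1b and 54.7% of those of Bcl2a1d were also found unchanged in another of the 3 copies. The read length is not known from the sources used here. The deposited counts show the same sharing. Single copies carry fractional counts such as 50.47, while the 3 copies and the low-count copy Bcl2a1c together added to a whole number within 0.02 in 6 of 6 libraries, 230, 303 and 300 in KO and 4825.01, 4057 and 4037 in Con. The 3 copies alone added to a whole number in 5 of 6. Their sum thus hardly depends on how reads were split between rows, while the values of single copies do.

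The promoters of the copies are near-identical too, and are shown because the 3 rows moved together. Rows that share reads can do so in part through that sharing. Each window is the 250 bases before the start site that RefSeq annotates (GRCm38.p6), chr9:88956670-88956919 on the plus strand for Bcl2a1a, chr9:89199023-89199272 on the plus strand for Bcl2a1b and chr9:88731851-88732100 on the minus strand for Bcl2a1d. The annotated start of Bcl2a1b lies further downstream, so the windows overlap only in part. Over the 205 aligned columns compared, 9 differ. Capitals mark those columns. Bcl2a1d lacks the bases GAAGAG and so shows 3 capitals where the others show 9. Bases outside the compared columns are in lower case whether or not they differ.
Bcl2a1a: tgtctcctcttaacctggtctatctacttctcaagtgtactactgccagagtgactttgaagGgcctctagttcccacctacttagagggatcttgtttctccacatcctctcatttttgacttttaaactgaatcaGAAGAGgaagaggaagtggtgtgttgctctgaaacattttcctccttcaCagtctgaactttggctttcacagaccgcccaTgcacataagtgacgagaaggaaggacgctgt
Bcl2a1b: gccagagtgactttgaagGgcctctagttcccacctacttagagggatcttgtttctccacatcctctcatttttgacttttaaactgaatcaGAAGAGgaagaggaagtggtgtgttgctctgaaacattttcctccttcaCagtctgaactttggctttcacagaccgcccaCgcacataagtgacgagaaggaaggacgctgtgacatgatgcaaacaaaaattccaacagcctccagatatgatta
Bcl2a1d: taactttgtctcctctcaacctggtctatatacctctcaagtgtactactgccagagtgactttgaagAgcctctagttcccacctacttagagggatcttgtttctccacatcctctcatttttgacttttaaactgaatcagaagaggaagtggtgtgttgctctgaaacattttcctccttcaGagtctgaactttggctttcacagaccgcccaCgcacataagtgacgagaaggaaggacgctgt

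Each of the 3 windows holds 1 match to GAGGAAGT, a form of the site of the myeloid factor PU.1, which 2.44% of all 32851 RefSeq promoter windows of this length hold on either strand. Each also holds 1 match to TGANTCA (6.75% of all windows) and 1 to TGACG, the core of a cyclic AMP response element (17.8%). TGANTCA is a loose form of the AP-1 site that allows any middle base, and the letters in all 3 windows are TGAATCA, not the usual AP-1 site. None holds GGGANNTTC, the first 9 letters of a common NF-kB site (3.23% of all windows), in this window. Of the other members' windows, Bax holds 1 match to the E-box CACGTG (6.02%) and the second of the 2 Bad windows 1 to GAGGAAGT. No member's window holds the STAT letters TTCNNNGAA (7.02%), and those of Mcl1 and Bok hold none of the 6 motifs. The motifs were searched on both strands and were chosen after the sequences were seen, and the 3 matches in each Bcl2a1 window do not overlap one another. A match describes letters, not binding.

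The transcripts' 3' ends carry the signal that precedes cleavage and the poly(A) tail. Every member's GENCODE M21 transcript has AATAAA in its last 50 bases, as do 64.8% of the 8934 transcripts of the table's genes that could be matched by symbol. The last 30 bases are shown with that signal in capitals, for the members in both directions of change. The positions (GRCm38) are chr9:88962390-88962419 plus for Bcl2a1a, chr9:89207798-89207827 plus for Bcl2a1b, chr9:88723285-88723314 minus for Bcl2a1d, chr3:95663147-95663176 plus for Mcl1, chr7:45461697-45461726 minus for Bax, chr19:6951870-6951899 plus for Bad and chr1:93695735-93695764 plus for Bok.
Bcl2a1a: gAATAAAttactagtatttgtttctgtaca
Bcl2a1b: atgAATAAAttactagtatttgtttctgta
Bcl2a1d: gAATAAAttactagtatttgtttctgtaca
Mcl1: tctgaagagaaAATAAAcctttttcccccc
Bax: gccAATAAAcctcaggtccactttggattg
Bad: ttatAATAAAgcctgcgcatgtgccgccgc
Bok: ttatactccAATAAAgctttacctagtgaa

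The signal is thus shared by members that were higher and members that were lower in KO. The 3' untranslated part has 2353 bases in Mcl1, with 8 copies of the AU-rich pentamer ATTTA, and 147 to 602 bases with at most 1 copy in each of the other members. Over the table's genes its median length is 988 bases and the median number of ATTTA copies is 1, and 34.8% hold at least 3.

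All 7 members passed the filter on low counts, and all 7 passed the test, 3 higher (Mcl1, Bad and Bok) and 4 lower (Bax and the 3 Bcl2a1 copies) in KO. Bok passed the filter only through its KO libraries, the group where it is high, so its presence in the test is no separate support. The median log2 fold change of the 7 was -1.49, which is the value of Bax, where the median of all tested genes was -0.06. That median counts the 3 Bcl2a1 copies, which share reads, as 3 values. With the copies taken once as their sum, the values were -3.30, -1.49, 0.64, 1.54 and 3.39, and the middle one, of Bad, was positive. The median thus shows no shift of the family. In each of the 7 the KO and Con values did not overlap, which held for 84.6% of tested genes. With 82.0% of all genes called, these shares say nothing particular about the family, and the sizes and directions of the single genes are what follows.

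**Figure D1:**
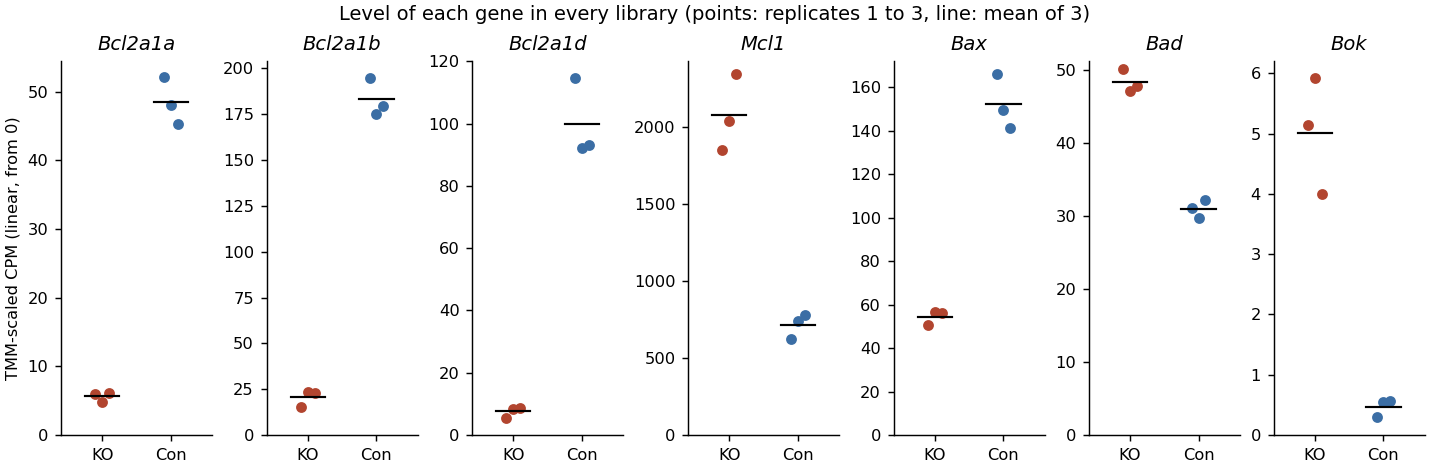
TMM-scaled CPM of each member on a linear axis from 0, KO left and Con right. Points are the 3 libraries of a group and the line is their mean. The Bcl2a1 copies and Bax lie lower in every KO library than in any Con library, and Mcl1, Bad and Bok lie higher.

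The survival genes moved apart. Bcl2a1, a survival gene of activated myeloid cells, fell as a group of copies, while Mcl1 rose. The summed Bcl2a1 copies stood at 26.6, 37.0 and 37.7 CPM in KO replicates 1, 2 and 3, against 362, 315 and 318 CPM in Con replicates 1, 2 and 3. The groups lay far apart, and KO replicate 1 was the lowest and Con replicate 1 the highest library. The mean was 33.8 ± 6.19 CPM in KO and 332 ± 26.1 CPM in Con (SD, n = 3 each), a log2 fold change of -3.30 (SE 0.14, 95% interval -3.61 to -2.99), which is 9.83-fold lower in KO, with an adjusted p of 4.26e-08 (quasi-likelihood test of edgeR, Benjamini-Hochberg). Of all tested genes, 403 (4.82%) had a lower log2 fold change than this sum.

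By copy, Bcl2a1b was the most counted, with 15.3, 23.7 and 22.9 CPM in KO and 195, 175 and 179 CPM in Con (log2 fold change -3.15, SE 0.15, adjusted p = 8.48e-08). Bcl2a1d had 5.41, 8.46 and 8.76 CPM in KO and 115, 92.2 and 93.0 CPM in Con (-3.73, SE 0.17, adjusted p = 6.97e-08). Bcl2a1a had 5.90, 4.87 and 6.04 CPM in KO and 52.1, 48.1 and 45.3 CPM in Con (-3.12, SE 0.13, adjusted p = 4.18e-08). Every copy was about an order of magnitude lower in KO, and the copies kept the order b, d, a on average in both groups. Bcl2a1c, which is no member, had 1.98, 3 and 7 counts in KO and 49.75, 46 and 62.99 counts in Con (-3.04, SE 0.41).

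The mix of copies differed little beside this fall. Bcl2a1b made up 57.5%, 64.0% and 60.7% of the counts of the 3 copies in KO, and 53.9%, 55.5% and 56.5% in Con. Bcl2a1d made up 20.3%, 22.9% and 23.2% in KO and 31.7%, 29.3% and 29.3% in Con, without overlap (22.1% ± 1.59 in KO, 30.1% ± 1.39 in Con). The exact permutation test on this share gave p = 0.1, two-sided, which is the smallest that 3 against 3 libraries can give, and the same p for Bcl2a1b. The share of Bcl2a1a overlapped between groups (13.2% to 22.1% in KO, 14.2% to 15.2% in Con; exact permutation p = 0.6). The shares rest on 228.02 to 300 counts in a KO library and 3974.01 to 4775.26 in a Con library. Exact Clopper-Pearson 95% intervals for Bcl2a1d reached from 15.2% to 28.5% over the KO libraries and from 27.9% to 33.0% over the Con libraries. Those of KO replicates 2 and 3 (up to 28.2% and 28.5%) overlapped those of Con replicates 2 and 3 (each from 27.9%). That of KO replicate 1 (up to 26.0%) overlapped no Con interval, and that of Con replicate 1 (from 30.4%) no KO interval. These intervals hold counting error alone, as reads carry no molecular identifiers here and are not independent molecules.

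**Figure D2:**
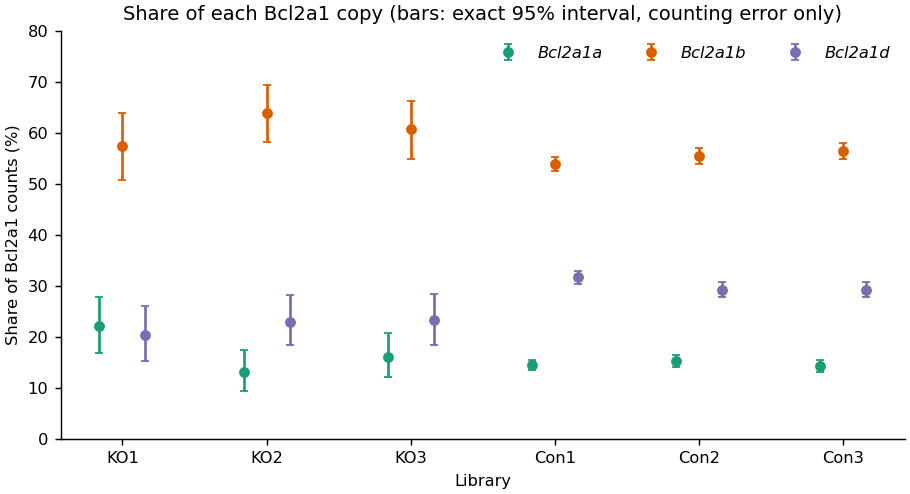
Share of each Bcl2a1 copy in the counts of the 3 copies (percent, vertical axis) by library, KO left of Con, with exact 95% intervals. Bcl2a1b leads in all 6 libraries, and the share of Bcl2a1d is 20.3% to 23.2% in KO and 29.3% to 31.7% in Con.

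Mcl1, whose protein holds back BAK and BAX and is quickly degraded, went the other way. It had 15816, 16521 and 18193 counts in KO, against 8187, 9394 and 9746 counts in Con. After scaling these were 1848, 2038 and 2341 CPM in KO and 620, 738 and 779 CPM in Con, so the lowest KO library stood more than 2 times above the highest Con library. The log2 fold change was 1.54 (SE 0.12, 95% interval 1.26 to 1.82), 2.91-fold higher in KO (edgeR quasi-likelihood test, adjusted p = 2.19e-06). Among tested genes, 1277 (15.3%) had a higher log2 fold change. The spread between replicates was similar in the groups, with a coefficient of variation of 12% in KO and 11.6% in Con.

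The effectors also moved apart. Bax, a pore-forming effector and a known p53 target, had 433, 458 and 435 counts in KO and 2196, 1904 and 1770 counts in Con. Its level was 50.6, 56.5 and 56.0 CPM in KO and 166, 150 and 142 CPM in Con, with a narrow spread in both groups. The log2 fold change of -1.49 (SE 0.09, adjusted p = 4.57e-07) corresponds to a 2.81-fold lower level in KO. Bok, a BAX-like effector, was the rarest member, with 44, 48 and 31 counts in KO and 4, 7 and 7 counts in Con. Its level was 5.02 ± 0.972 CPM in KO and 0.471 ± 0.145 CPM in Con (SD, n = 3 each), a log2 fold change of 3.39 (SE 0.32, 95% interval 2.66 to 4.12, adjusted p = 7.47e-06). The rise is clear of the replicate spread, but its size is the least precise of the 7, because Con rests on 4 to 7 counts per library.

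Bad, a BH3-only protein whose phosphorylation by survival kinases keeps it away from the mitochondrion, rose least. It stood at 50.1, 47.1 and 47.8 CPM in KO and 31.1, 29.7 and 32.1 CPM in Con, and the groups did not overlap. The log2 fold change was 0.64 (SE 0.09, adjusted p = 7.36e-05), 1.56-fold higher in KO. With library size as the only scaling, which lowered the log2 fold change of every member, that of Bad was 0.29 (adjusted p = 0.0152). Bad also shares reads with its neighbour Gpr137, whose annotated exons overlap it on the opposite strand. The counts of both genes are fractional in 5 of 6 libraries, and the pair adds to a whole number in 6 of 6 (940, 791 and 788 in KO, 806, 772 and 803 in Con). Whether the counting used strand is not given in the sources used here. Summed as 1 row, an alternative chosen after seeing the data, the pair was higher in KO by 0.73 (SE 0.08), and Gpr137 alone by 0.82. How truly the reads were divided between them was not tested.

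Ratios of counts within a library do not depend on scaling between libraries. Mcl1 counts were 69.4, 55.1 and 62.1 times the Bcl2a1 sum in KO, against 1.71, 2.34 and 2.45 times in Con, a 28.9-fold difference of the ratio. Mcl1 over Bax was 36.5, 36.1 and 41.8 in KO and 3.73, 4.93 and 5.51 in Con. Bad over Bax was 0.991, 0.834 and 0.854 in KO and 0.187, 0.199 and 0.227 in Con, without overlap. The Bcl2a1 sum over Bax was lower in KO, with 0.527, 0.655 and 0.674, than in Con, with 2.18, 2.11 and 2.24. For each of the 8 ratios computed the groups did not overlap and the exact permutation p was 0.1, two-sided, the smallest this design allows. It was also 0.1 after Benjamini-Hochberg adjustment over the 8.

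**Figure D3:**
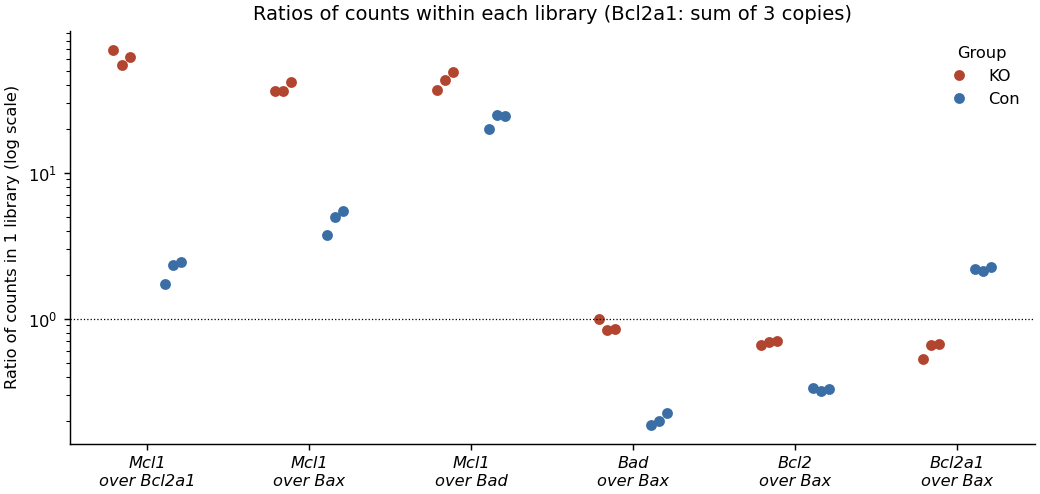
Ratios of counts within each library on a log axis, KO left of Con for each pair of genes, 3 points a group. Mcl1 over the Bcl2a1 sum is 55.1 to 69.4 in KO and 1.71 to 2.45 in Con, and the Bcl2a1 sum over Bax lies below 1 in KO and above 2 in Con.

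Levels of different genes were compared as TMM-scaled CPM per kilobase of the GENCODE M21 transcript. In KO the order was led by Mcl1 at 607 ± 72.7, followed by Bax at 62.7 ± 3.77, Bad at 33.3 ± 1.09, Bcl2a1b at 25.3 ± 5.65, Bcl2a1d at 8.74 ± 2.15, Bcl2a1a at 6.84 ± 0.779 and Bok at 3.42 ± 0.662 CPM per kilobase (SD, n = 3). Only Bcl2a1d and Bcl2a1a had overlapping values among neighbours in that order. In Con the order was led by Bcl2a1b at 224 ± 12.9, followed by Mcl1 at 208 ± 24.2, Bax at 176 ± 14.6, Bcl2a1d at 116 ± 14.7, Bcl2a1a at 59.2 ± 4.17, Bad at 21.3 ± 0.815 and Bok at 0.321 ± 0.0991 CPM per kilobase. There Bcl2a1b and Mcl1 overlapped, and so did Mcl1 and Bax. Summed over copies, Bcl2a1 per kilobase was 40.8 ± 7.46 in KO, below Mcl1 in each library (Mcl1 13.3 to 16.8 times higher), and 399 ± 31.2 in Con, above Mcl1 in each library (1.68 to 2.40 times). Mcl1 thus led the measured survival genes per length in KO, and the Bcl2a1 copies together led in Con. The order in Con rests on the lengths used, 3418 bases for Mcl1 and 817 to 863 for the copies. In counts Mcl1 exceeded the Bcl2a1 sum there too. Each length is that of 1 annotated transcript per gene, and which transcripts these samples use was not tested.

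**Figure D4:**
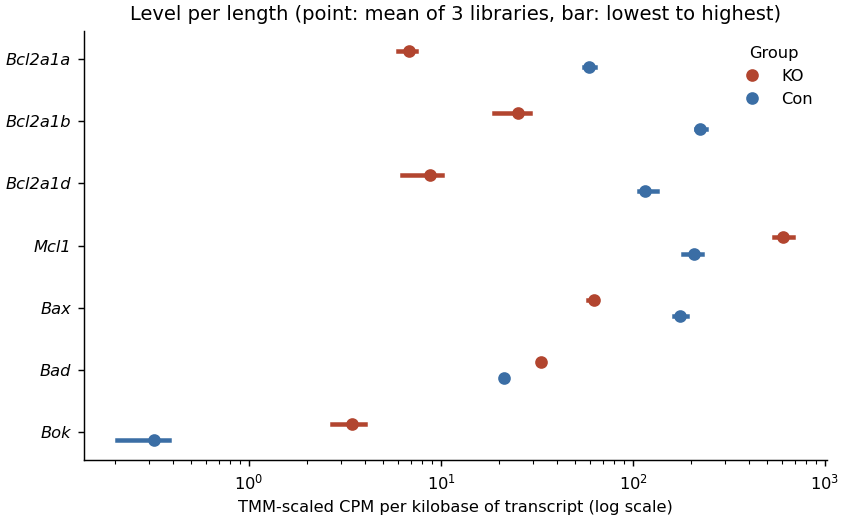
TMM-scaled CPM per kilobase of transcript on a log axis, KO above Con for each member. Points are means of 3 libraries and bars run from the lowest to the highest. Mcl1 stands alone at 607 in KO, while in Con Bcl2a1b, Mcl1 and Bax lie between 176 and 224.

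Of 19 further relatives listed, 10 had a row and all 10 passed the filter, Bcl2l14 and Bcl2a1c only through their Con libraries. Bcl2l1, Bak1, Bid and Pmaip1 are among the others, which were not analysed here. Of the 10, 2 rose, 7 fell and 1 did not pass, with a median log2 fold change of -0.52. With library size only, 0 rose and 8 fell. Among survival genes, Bcl2, the founder of the family, stood at 33.4, 39.2 and 39.4 CPM in KO and 56.1, 47.5 and 46.9 CPM in Con (-0.43, SE 0.11, adjusted p = 0.00496), and Bcl2l2, which encodes BCL-W, at 25.2 ± 3.10 CPM in KO and 65.4 ± 2.13 CPM in Con (-1.37, SE 0.10). Of the survival genes measured, Mcl1 rose, and Bcl2, Bcl2l2 and each Bcl2a1 copy fell.

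BH3-only genes were mixed. Bcl2l11, which encodes BIM, fell by 0.59 (SE 0.17), with 57.0, 78.0 and 99.0 CPM in KO and 118, 116 and 118 CPM in Con. Bbc3, which encodes PUMA, a p53 target, was at 15.0 ± 2.62 CPM in KO and 20.5 ± 3.02 CPM in Con (-0.45, SE 0.17, adjusted p = 0.0297). Leaving out KO replicate 1 (-0.33, adjusted p = 0.0921), KO replicate 2 (-0.45, adjusted p = 0.0660) or Con replicate 1 (-0.31, adjusted p = 0.120) ended that call, and so did DESeq2 (-0.39, adjusted p = 0.0544). Bmf, whose protein responds to loss of attachment, rose by 0.73 (SE 0.21), but KO replicate 1 at 23.02 CPM lay just above Con replicate 1 at 22.95 CPM, and with library size only the change was 0.38 (adjusted p = 0.132).

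Among the more distant relatives, Bnip3, a hypoxia-responsive gene of mitophagy, fell about as far as the Bcl2a1 copies, with 46.6, 40.8 and 40.0 CPM in KO and 420, 356 and 349 CPM in Con (-3.14, SE 0.11, adjusted p = 1.51e-08). Its close relative Bnip3l, which clears mitochondria from maturing red cells, was at 436 ± 14.5 CPM in KO and 408 ± 13.2 CPM in Con (0.10, 95% interval -0.08 to 0.27, adjusted p = 0.266), and turned to -0.26 (adjusted p = 0.0163) with library size only. Bcl2l12 rose by 0.60 (SE 0.14; 0.24, adjusted p = 0.167, with library size only). Bcl2l14 was rare, with 2, 5 and 3 counts in KO and 42, 24 and 35 counts in Con (-2.65, SE 0.42).

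**Figure D5:**
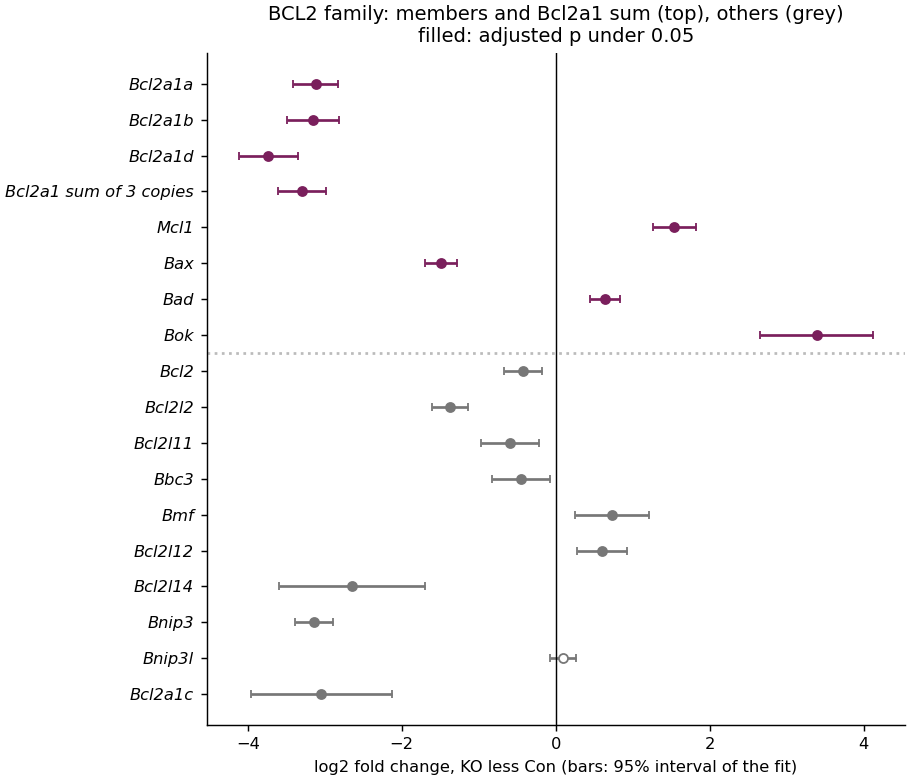
Log2 fold change, KO less Con, with the 95% interval of the fit, for the 7 members and the Bcl2a1 sum (top) and the other measured relatives (grey). Filled points passed an adjusted p of 0.05. The Bcl2a1 copies and Bnip3 lie between -3.73 and -3.04, Bok at 3.39, and Bnip3l at 0.10 is the open point.

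Downstream of the family, 5 of 13 listed apoptosome and caspase genes had a row. Casp2, a caspase activated by stress, rose (108 ± 6.76 CPM in KO, 61.7 ± 5.12 in Con, log2 fold change 0.81), and Cflar, which blocks death receptor signalling, fell (146 ± 12.5 CPM in KO, 230 ± 11.4 in Con, -0.66). Apaf1, the scaffold of the apoptosome, was at 0.10 and Cycs, cytochrome c, at -0.12, and neither passed. With library size only all 5 passed, 1 higher and 4 lower. Of 8 genes in a list of inhibitors of apoptosis, their antagonists and Aifm1, apoptosis-inducing factor, 3 rose and 4 fell (1 rose and 4 fell with library size only). Birc5, survivin, rose most (260 ± 14.0 CPM in KO, 76.7 ± 2.46 in Con, 1.76), Xiap and Birc2 rose by 0.33 and 0.36 (-0.02 and 0.00 with library size only, neither called), and Aifm1, Birc6 and Birc3 fell by 1.36, 1.01 and 0.70.

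Genes of outer membrane partners and of mitochondrial fission and fusion were divided too. Of 8, 3 were higher and 5 lower (1 higher and 5 lower with library size only). Tspo, a cholesterol-binding protein of that membrane, rose by 1.45, and Vdac2, the channel known to hold BAK, by 0.39 (0.04 with library size only, not called). The related channel gene Vdac3 rose by 0.28 with overlapping groups, and turned to -0.08 (adjusted p = 0.533) with library size only, while Mtch2, a receptor for truncated BID, fell by 0.43 and the fission and fusion genes Dnm1l and Opa1 fell by 0.61 and 0.63.

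Genes known to act on members were listed by the member they act on. Of 10 that bear on the making or turnover of MCL1, 5 rose and 4 fell (4 rose and 5 fell with library size only). Huwe1, a ubiquitin ligase for MCL1, fell to 164 ± 25.8 CPM in KO, against 331 ± 1.30 in Con (-1.01, SE 0.11), Usp9x, a deubiquitinase that stabilises MCL1, fell by 0.62, and Gsk3b, a kinase that marks MCL1 for degradation, by 0.32. The kinase genes Mapk14 and Cdk9 rose by 1.22 and 0.83, and Ube2c, a ubiquitin-conjugating enzyme of the anaphase-promoting complex, by 1.12. Cdk9 drives the transcription on which short-lived messages such as Mcl1 depend. Of 11 genes of BAD kinases, phosphatases and 14-3-3 proteins, 6 rose and 3 fell (5 rose and 4 fell with library size only). Rps6ka1, whose kinase phosphorylates BAD, rose by 1.58 (544 ± 36.8 CPM in KO, 182 ± 3.79 in Con), and the phosphatase gene Ppp1ca by 1.10. Pim2, another kinase of BAD, fell to 23.9 ± 5.19 CPM in KO, against 177 ± 42.6 in Con (-2.90, SE 0.21), and the related kinase gene Pim3 and the 14-3-3 gene Ywhag fell by 0.69 and 1.27.

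Of 7 measured genes of p53 regulators, partners and targets 0 rose and 4 fell. With median-ratio scaling, with DESeq2 or without KO replicate 1, 1 rose, and with library size only 6 fell. Mdm2, the p53 ubiquitin ligase and itself a p53 target, fell to 166 ± 34.5 CPM in KO, against 446 ± 52.0 in Con (-1.43, SE 0.15), Ppp1r13l, which encodes the p53 inhibitor iASPP, by 2.15 and the damage kinase gene Atm by 1.02. The fourth is Cdkn1a, a p53 target that encodes the cell cycle inhibitor p21, at 182 ± 113 CPM in KO and 636 ± 61.9 CPM in Con (-1.80, SE 0.39). Of 8 NF-kB factors and inhibitors 2 rose and 5 fell. Nfkb2 fell to 71.9 ± 14.6 CPM in KO, against 149 ± 21.2 in Con (-1.05), Relb by 0.88 and Nfkb1 by 0.75, and Rela and the kinase gene Ikbkb rose by 0.37 and 0.46. With library size only those rises were 0.01 and 0.11 and not called, so 0 of the 8 rose and 5 fell. These groups of regulators had medians between -1.02 and 0.45 (log2), where all genes had -0.06.

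The genes whose levels ran most like the members were found by the smallest root mean square difference of centred log2 CPM over the 6 libraries. For the Bcl2a1 sum they were Cyp51 (0.12), Fads2 (0.12) and Hbegf (0.14). For Mcl1 they were Parp8 (0.06), Tmem134 (0.07) and Ly6g5b (0.08), for Bax Fdx1 (0.04), Miga1 (0.06) and Slc35g1 (0.06), for Bad Cnst (0.03), Vrk3 (0.04) and Apbb1ip (0.04), and for Bok Clec4a2 (0.15), Gpx3 (0.16) and Anxa1 (0.17). With 2 groups of 3 libraries, such likeness mostly reflects a fold change of the same size. Genes whose log2 CPM averaged under 2, such as Bcl2a1c, were left out of this search. For the Bcl2a1 sum, its 3 copies were left out too. Among the genes searched, no BCL2 relative is one of these 15. Likeness to the rows left out was not tested.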

How the data were processed

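Gene levels were measured by RNA sequencing of 6 bone marrow samples (3 KO, 3 Con), with RNA extracted by TRIzol and libraries made with a BGI mRNA kit, per the labels' protocols. The deposited table holds expected counts per gene, not scaled, per the file headers, and 15.6% of the genes have a fractional count in some library. The submitters' processing notes name GRCh38, which is a human build, although the genes are mouse genes. No aligner or counting tool is given in the sources used here. Sequences and positions come from RefSeq GRCm38.p6 and GENCODE M21, not from the authors' alignment.

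Counts were rounded and tested over the whole table by edgeR 4.0.16 (R 4.3.3; TMM factors 0.8759 to 1.17, filterByExpr, robust quasi-likelihood test, two-sided, no covariate), with Benjamini-Hochberg adjustment over 8358 genes and a threshold of 0.05. The test code was checked on simulated data in which few genes changed. That check does not cover a difference at most genes, as found here. For the Bcl2a1 sum the 3 rows were replaced by their sum and the table was fitted again. Errors are SD over 3 libraries. CPM use TMM-scaled library sizes and unrounded counts. Coding parts and promoters were aligned with MAFFT 7.526. At these depths 1 CPM rests on about 10 counts, so lower values are imprecise. The members and lists were chosen with earlier results of these data known. Genes named are the members, every measured relative, up to 3 genes per list and direction with the smallest adjusted p, and the 3 nearest genes by likeness. Apaf1, Cycs, Cdkn1a, Gzmb and macrophage and blood markers are named besides these, after their values were seen. Some genes in the lists are counted but not reported by name here. Alternatives were DESeq2 1.42.0, limma-voom (limma 3.58.1), a non-robust fit, 3 other scalings, 2 other filters, a replicate block, leaving out each library, and sums of rows or libraries.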

Additional observations from a re-analysis of the deposited data

How the results depend on the processing

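All 7 members kept their direction and their call under each alternative that tested them. The exception in number is Bok, which a filter of at least 50 counts in 3 libraries removed, leaving 6 members called. The Bcl2a1 sum ran from -3.65 (library size only) to -3.15, and from -3.39 to -3.15 when 1 library was left out. With Bcl2a1c added, chosen after seeing the data, it was -3.29. The count of called genes ran from 6045 (the same strict filter) to 7215 (no filter), and from 6485 to 6855 without 1 library. Bnip3l reversed to -0.26 with library size only. Same-numbered KO and Con replicates did not deviate together (correlations -0.004 to 0.03). No pairing by number was seen, but with 3 libraries a group this cannot exclude one. With a replicate block 6766 genes, all 7 members and the Bcl2a1 sum (-3.30) were called. Values under about 1 CPM, such as Bok in Con and Bcl2a1c in KO, rest on few counts, and the split of reads among the Bcl2a1 copies and between Bad and Gpr137 limits those rows.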
